A study of Solanum lycopersicum with 12 samples.

Results

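The MYB transcription factor genes of young tomato fruits are described here across fruits that overexpress a grapevine sucrose transporter and WT fruits. The members are the genes whose deposited annotation against the NR protein database holds, in any case of letters, the words MYB transcription factor, transcription factor MYB, transcription repressor MYB, Myb-related, myb-like or R2R3, and not LHY. This rule took 101 of the 22827 genes in the deposited table. RNA had been sequenced from whole 5 DPA (days post anthesis) fruits of the dwarf tomato Micro-Tom, with the developing seeds inside. There were 3 libraries each of VvSUC27-OE, VvSUC12-OE, VvSUC11-OE and WT fruits, 12 in all. The OE plants carry VvSUC27, VvSUC12 or VvSUC11 of Vitis vinifera behind the constitutive cauliflower mosaic virus 35S promoter, and the WT carries none of them. The VvSUC12-OE and VvSUC11-OE plants were of the T1 generation and the VvSUC27-OE plants of the T0 generation. Only 1 line stood for each genotype. The transgene and the line therefore cannot be told apart, and for VvSUC27-OE neither can the generation.

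MYB proteins bind DNA through a repeated helix-turn-helix domain, and most plant members carry a pair of such repeats and are called R2R3-MYBs. The family is known in plants for switching on, or holding back, flavonoid, anthocyanin and lignin synthesis, often together with bHLH and WD40 partner proteins, and for control of cuticle wax, secondary walls, trichomes, stamens and stress responses. Family members with 3 repeats act in the cell cycle, and single-repeat members without an activation domain can compete with R2R3-MYBs.

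The members were grouped by the protein named in their annotation. There were 16 named after repressor-type MYBs, 13 after floral and anther MYBs, 11 after stress MYBs, 8 after secondary wall MYBs, 5 after cuticle and epidermis MYBs, 4 after flavonoid MYBs and 4 after cell cycle MYBs. The MYB5-like gene69 is in both the repressor and the flavonoid group, and 41 members remained outside these groups. The names come mostly from Arabidopsis, snapdragon, maize, rice and potato, so a group states similarity of sequence and not a function shown in tomato. A Myb domain was listed in Pfam for 92 of the 101 members. The 9 without one included gene15819, called myb-like protein O but listed with tetratricopeptide repeats, which are not a DNA-binding domain.

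Most members were scarce at 5 DPA. In WT fruits 51 members averaged under 1 FPKM (the deposited fragment value normalised for transcript length and library depth), 32 lay between 1 and 10 FPKM, 18 reached 10 FPKM and 3 of these reached 100 FPKM. The FPKM of all members summed to between 952.4 and 988.6 in VvSUC27-OE, 940.7 and 963.0 in VvSUC12-OE, 1244 and 1306 in VvSUC11-OE and 995.7 and 1021 in WT libraries, so the VvSUC11-OE libraries stood above all others. The 9 members without a Myb domain are in these sums, of which 7 were higher and 2 lower in VvSUC11-OE than in the WT. Among them gene15819 averaged 117 FPKM in VvSUC11-OE and 57.5 FPKM in the WT, and gene20724 90.5 and 48.9 FPKM. Such sums, like every value from bulk fruits, cannot tell fewer cells of a type from less RNA per cell.

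The deposited counts had been scaled to a common library size by the authors and are called scaled counts. They summed to 20530052 to 21795363 per library. Differences are given as log2FC of the scaled counts plus 1, with standard errors (SE) and adjusted p-values from limma, and a gene is called where the adjusted p was under 0.01 and the log2FC above 1 in size. Of the 101 members, 58 had enough counts to be tested in some comparison, and 43 never did, their highest scaled count in any library being 23. Markers of young green fruit, chlorophyll-binding proteins and small Rubisco subunits, summed to 12230 to 12710 FPKM in VvSUC27-OE, 8975 to 9466 FPKM in VvSUC12-OE, 10680 to 11280 FPKM in VvSUC11-OE and 12640 to 13730 FPKM in WT libraries. Of the 2 ripe fruit markers, the ripening polygalacturonase gene was at 0 FPKM in VvSUC27-OE and WT libraries and under 2 FPKM elsewhere. Phytoene synthase 1 was at 39.4 to 41.0 FPKM in VvSUC27-OE, 28.3 to 30.0 FPKM in VvSUC12-OE, 62.3 to 65.9 FPKM in VvSUC11-OE and 28.2 to 29.3 FPKM in WT libraries. The 39 seed storage genes summed to 279.3 to 283.0 FPKM in VvSUC27-OE libraries, the lowest of the groups, 568.6 to 642.1 FPKM in VvSUC12-OE, 480.1 to 562.5 FPKM in VvSUC11-OE and 541.5 to 561.9 FPKM in WT libraries. Of these genes 16, 13, 2 and 8 were at 0 in every library of VvSUC27-OE, VvSUC12-OE, VvSUC11-OE and WT. By limma 4 of 8 tested fell and 0 rose in VvSUC27-OE against the WT, 1 rose and 1 fell of 8 in VvSUC12-OE, and 12 rose and 0 fell of 19 in VvSUC11-OE, with median log2FC of -0.98, 0.059 and 2.79. Over all genes 11%, 8.6% and 14.7% were called in VvSUC27-OE, VvSUC12-OE and VvSUC11-OE. Some seed storage genes were tested in VvSUC11-OE alone, through counts reached in that line. This raises its number of rises and its median. The part of these tissue differences in the MYB values below was not tested.

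Each OE line was first set against the WT, which asks how the MYB genes of a 5 DPA fruit differ when a transporter is overexpressed. In VvSUC27-OE fruits 10 members rose and 9 fell of 56 tested, a share of 33.9% called, where 11% of all genes tested were called (3.8% up and 7.21% down). In VvSUC12-OE fruits 5 rose and 6 fell of 54, a share of 20.4%, with 8.6% called over all genes (3.31% up and 5.3% down). In VvSUC11-OE fruits 11 rose and 8 fell of 57, a share of 33.3%, with 14.7% called over all genes (7.39% up and 7.33% down). At an FDR under 0.01 and any size of change, 32 members passed in VvSUC27-OE, 31 in VvSUC12-OE and 37 in VvSUC11-OE fruits, where 44.4%, 39.5% and 52.6% of all genes did. The FPKM of the line and the WT did not overlap for 37, 39 and 40 members in the same order, and for 60.5%, 57.8% and 67% of all genes tested. The 3 comparisons share their WT libraries. Altogether 29 members were called in at least 1 line, 4 more only between lines, and 25 of those tested in none of the comparisons.

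The size of these counts rested in part on scarce members. Of the called members, 3 in VvSUC27-OE, 3 in VvSUC12-OE and 5 in VvSUC11-OE had passed the count filter through 1 group alone, so they had to differ. In these no library of the other group reached 10 scaled counts. Further called members, such as gene25636 in VvSUC27-OE and gene21250 in VvSUC12-OE, passed only because of the group where they were higher. A call that was lost at a log2FC above 1 in size was lost on its adjusted p. Leaving out 1 library moved some counts by more than 1.5 times. Without VvSUC27-OE replicate 1 or 2 or WT replicate 1, the count up in VvSUC27-OE was 6, 4 and 6. The count up in VvSUC12-OE was 3 without its replicate 2 or without WT replicate 1 or 2. The count down in VvSUC12-OE was 2, 3 and 3 without WT replicate 1, 2 and 3. In VvSUC11-OE fruits the count up was 6 without its replicate 1 and the count down 5 without WT replicate 1 or 3.

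**Figure D1:**
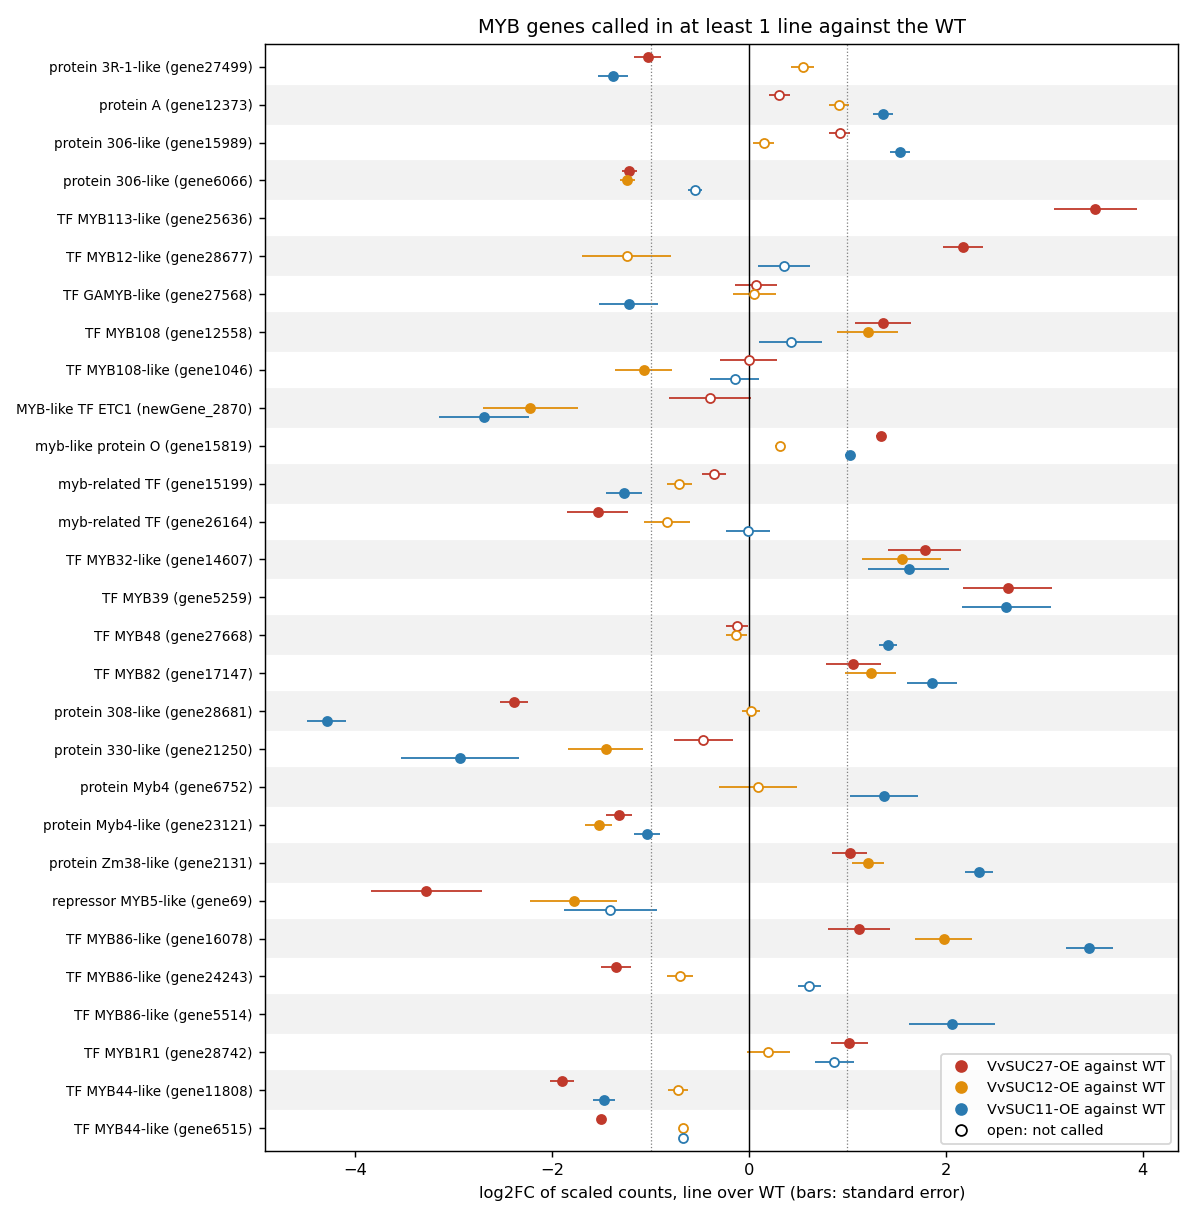
The log2FC against the WT (x axis, scaled counts) of the 29 MYB genes called in at least 1 line, 1 gene per row, with points for VvSUC27-OE, VvSUC12-OE and VvSUC11-OE and bars for the SE. Filled points were called, open points were not, and a missing point was not tested; the lowest value is that of gene28681 in VvSUC11-OE at -4.29 and the highest that of gene25636 in VvSUC27-OE at 3.52.

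Among the repressor-type MYBs, a gene named after a snapdragon MYB (gene28681) was scarce in 2 of the lines, a Zm38-like gene rose in all of them and a Myb4-like gene fell in all of them. The snapdragon MYBs of this kind lower phenolic compounds and lignin when overexpressed in tobacco, and Zm38 is a maize MYB. The name Myb4 is shared by a repressor of phenylpropanoid genes in Arabidopsis and a cold-response factor of rice. Of the 16 members, 1 rose and 3 fell of 8 tested in VvSUC27-OE, 1 rose and 3 fell of 9 in VvSUC12-OE, and 2 rose and 3 fell of 9 in VvSUC11-OE. Of all genes tested, 11%, 8.6% and 14.7% were called in VvSUC27-OE, VvSUC12-OE and VvSUC11-OE. The median log2FC of the tested repressor-type members was -0.48 in VvSUC27-OE, -0.27 in VvSUC12-OE and -0.77 in VvSUC11-OE. The medians over all genes tested were 0.0019, -0.0051 and -0.030 in the same order.

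The snapdragon-type gene28681 was at 1.49, 1.76 and 1.90 FPKM in VvSUC27-OE, 9.02, 9.25 and 9.52 FPKM in VvSUC12-OE, 0.369, 0.458 and 0.533 FPKM in VvSUC11-OE, and 9.78, 8.99 and 8.46 FPKM in WT fruits. VvSUC12-OE and WT values lay in the same range, VvSUC27-OE values far below them and VvSUC11-OE values lowest, with no overlap of either with the WT. The log2FC against the WT was -2.39 (SE 0.15, adjusted p = 1.9e-10) in VvSUC27-OE and -4.29 (SE 0.20, adjusted p = 8.7e-11) in VvSUC11-OE, and 0.02 (SE 0.09) in VvSUC12-OE. The other genes with the same name differed less. Gene3670 averaged 1.63, 1.45 and 2.19 FPKM in the 3 lines in the same order and 2.23 FPKM in the WT and was not called. Gene19180 stayed under 1 FPKM on average in every group and was too scarce to test.

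The Zm38-like gene2131 was at 3.13, 4.14 and 3.597 FPKM in VvSUC27-OE, 4.21, 4.31 and 4.08 FPKM in VvSUC12-OE, 9.14, 8.64 and 9.66 FPKM in VvSUC11-OE and 1.63, 1.64 and 2.02 FPKM in WT fruits. Every OE library was above every WT library, those of VvSUC11-OE furthest. The log2FC was 1.02 (SE 0.18), 1.21 (SE 0.16) and 2.34 (SE 0.14) in VvSUC27-OE, VvSUC12-OE and VvSUC11-OE, with adjusted p-values of 9.2e-05, 5.5e-06 and 1.8e-09. The call in VvSUC27-OE sat at the threshold and was lost without VvSUC27-OE replicate 2 (log2FC 0.92), WT replicate 1 (0.96) or WT replicate 2 (0.98).

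The Myb4-like gene23121 went the other way, at 2.80, 2.77 and 2.70 FPKM in VvSUC27-OE, 2.42, 2.24 and 2.68 FPKM in VvSUC12-OE, 3.28, 3.16 and 3.91 FPKM in VvSUC11-OE and 6.81, 6.78 and 6.98 FPKM in WT fruits. Every OE library was below every WT library. The log2FC was -1.32 (SE 0.13), -1.52 (SE 0.14) and -1.04 (SE 0.13), with adjusted p-values of 1.3e-07, 3.6e-08 and 7.1e-06. Of these, only the call in VvSUC11-OE depended on a library, at -0.98 without VvSUC11-OE replicate 2.

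Scarcer repressor-type genes were called too. The 330-like gene21250 was at 0.971, 0.717 and 1.07 FPKM in VvSUC27-OE, 0.298, 0.696 and 0.449 FPKM in VvSUC12-OE, 0.246, 0.0507 and 0.331 FPKM in VvSUC11-OE and 1.29, 1.60 and 0.946 FPKM in WT fruits, where VvSUC12-OE and VvSUC11-OE libraries were all below the WT and those of VvSUC27-OE overlapped it. The log2FC was -1.46 (SE 0.38, adjusted p = 0.0036) in VvSUC12-OE, -2.94 (SE 0.60) in VvSUC11-OE and -0.46 (SE 0.30) in VvSUC27-OE. In VvSUC11-OE the gene had passed the filter through the WT alone, so the value there is a description. In VvSUC12-OE, with scaled counts of 5, 13 and 8, it also passed only because of the WT. That value is a description too. The VvSUC12-OE call was lost without VvSUC12-OE replicate 1 (log2FC -1.16), WT replicate 1 (-1.46, adjusted p = 0.016) or WT replicate 2 (-1.26). The repressor MYB5-like gene69, named after an Arabidopsis factor of seed coat and trichomes, was at 0.126, 0 and 0.272 FPKM in VvSUC27-OE, 0.333, 0.409 and 0.384 FPKM in VvSUC12-OE, 0.849, 0.409 and 0.279 FPKM in VvSUC11-OE and 2.33, 0.724 and 1.12 FPKM in WT fruits. VvSUC27-OE and VvSUC12-OE libraries were all below the WT and those of VvSUC11-OE overlapped it. The log2FC in the 3 lines was -3.28 (SE 0.56), -1.78 (SE 0.44) and -1.41 (SE 0.47, adjusted p = 0.017). In VvSUC27-OE and VvSUC12-OE it had passed the filter through the WT alone, so the values there are a description. The seed storage genes had a median log2FC of -0.98, 0.059 and 2.79 in the 3 lines, over 8, 8 and 19 tested genes. The last of these is raised by genes that were tested in VvSUC11-OE alone. Their part in the values of gene69 was not tested. The gene called Myb4 (gene6752) was at 0.187, 0.0387 and 0.111 FPKM in VvSUC27-OE, 0.620, 0.550 and 0.404 FPKM in VvSUC12-OE, 1.32, 1.22 and 1.34 FPKM in VvSUC11-OE and 0.494, 0.794 and 0.292 FPKM in WT fruits. It was highest in VvSUC11-OE and lowest in VvSUC27-OE without overlap. It rose in VvSUC11-OE fruits (log2FC 1.38, SE 0.34, adjusted p = 0.0028), a call lost without VvSUC11-OE replicate 1 (1.35) or WT replicate 3 (1.03). It was too scarce to test in VvSUC27-OE against the WT.

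**Figure D2:**
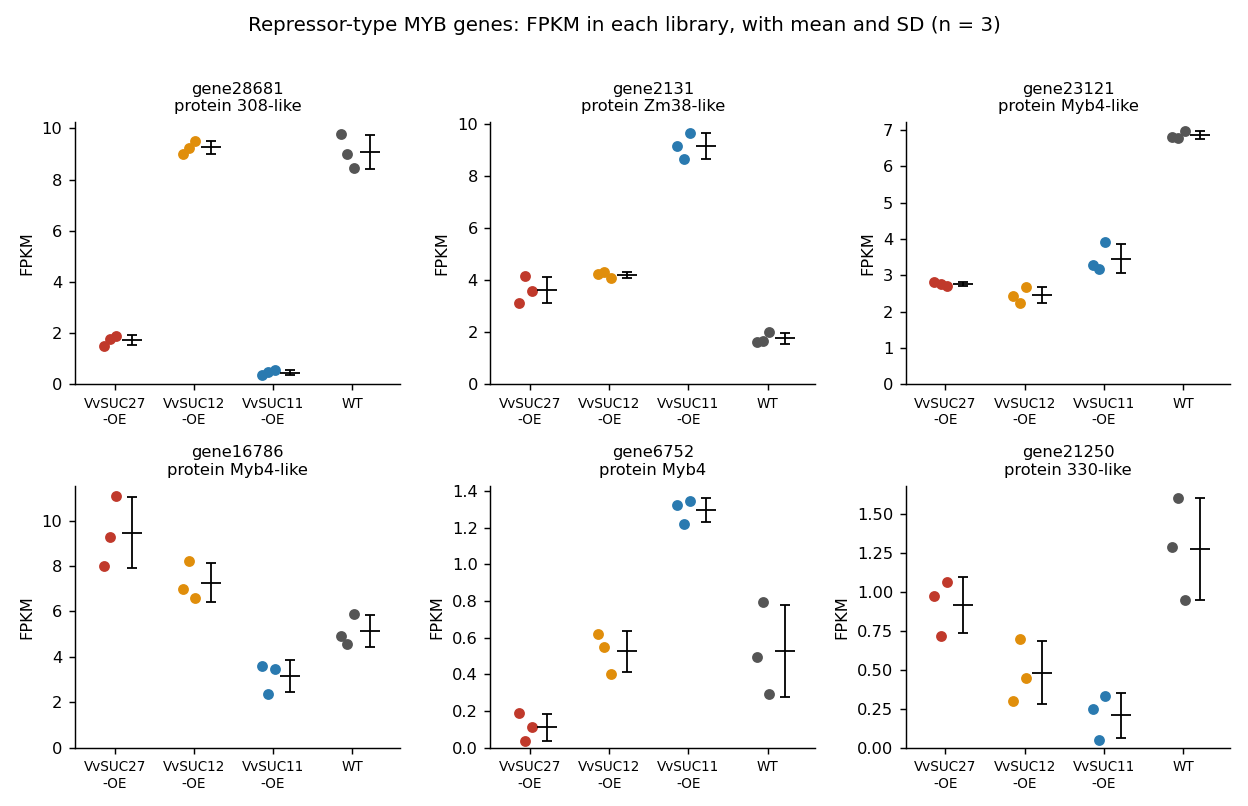
FPKM (y axis, from 0) of 6 repressor-type MYB genes in the libraries of VvSUC27-OE, VvSUC12-OE, VvSUC11-OE and WT fruits; points are libraries, and the bar beside them is the mean with its SD (n = 3). Gene28681 lies near 9 FPKM in VvSUC12-OE and WT fruits and under 2 FPKM in VvSUC27-OE and VvSUC11-OE fruits, and the Zm38-like gene2131 is higher in each line than in the WT.

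Among the flavonoid MYBs, a pair of genes rose in VvSUC27-OE fruits and were higher there than in the other lines. One is named after MYB12, the flavonol regulator of Arabidopsis and tomato peel, and one after MYB113, an anthocyanin activator of Arabidopsis. The MYB12-like gene28677 was at 5.24, 4.99 and 6.31 FPKM in VvSUC27-OE, 0.218, 0.659 and 0.922 FPKM in VvSUC12-OE, 1.62, 1.54 and 1.30 FPKM in VvSUC11-OE and 1.30, 0.946 and 1.22 FPKM in WT fruits. VvSUC27-OE libraries were above all others, VvSUC12-OE libraries were below the WT, and VvSUC11-OE libraries were level with the top of the WT range or above it. The log2FC was 2.17 (SE 0.20, adjusted p = 6.9e-08) in VvSUC27-OE, -1.24 (SE 0.45, adjusted p = 0.029) in VvSUC12-OE and 0.35 (SE 0.27, adjusted p = 0.26) in VvSUC11-OE. VvSUC27-OE was above VvSUC12-OE by 3.42 (SE 0.39, adjusted p = 6.3e-07) and above VvSUC11-OE by 1.82 (SE 0.20, adjusted p = 6.3e-07).

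The MYB113-like gene25636 is listed in RefSeq with the synonym Aft, the tomato locus known for anthocyanin in the fruit peel. It was at 4.65, 3.56 and 3.13 FPKM in VvSUC27-OE, 0.246, 0.118 and 0.0686 FPKM in VvSUC12-OE, 0.359, 0.134 and 0.137 FPKM in VvSUC11-OE and 0.227, 0.149 and 0.690 FPKM in WT fruits. Only VvSUC27-OE libraries stood clear of the rest, and the other groups overlapped each other at a level that gave at most 11 scaled counts. The log2FC was 3.52 (SE 0.42, adjusted p = 1.5e-06) against the WT, 4.91 (SE 0.48) against VvSUC12-OE and 4.19 (SE 0.43) against VvSUC11-OE. In the last 2 of these it passed the filter through VvSUC27-OE alone, so the calls there are a description. Against the WT, with scaled counts of 3, 2 and 11, it also passed only because of VvSUC27-OE. That value is a description too. The gene was too scarce to test elsewhere. A second MYB113-like gene, gene25632, averaged 0.274, 0.107 and 0.137 FPKM in VvSUC27-OE, VvSUC12-OE and VvSUC11-OE and 0.631 FPKM in WT fruits, too low to test.

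The enzymes that such MYBs are known to act on were read from a list of 81 flavonoid and phenylpropanoid genes. Of the 63 tested in each comparison, 10 rose and 12 fell in VvSUC27-OE, 4 rose and 11 fell in VvSUC12-OE, and 11 rose and 13 fell in VvSUC11-OE, with median log2FC of 0.0034, -0.16 and 0.096. The share called was 34.9%, 23.8% and 38.1%, beside 11%, 8.6% and 14.7% of all genes. Of 3 chalcone synthase genes in the list, named here after their values were seen, a pair were higher in the lines and 1 was not. Chalcone synthase 1B (gene23253) was at 888, 823 and 829 FPKM in VvSUC27-OE, 168, 168 and 169 FPKM in VvSUC12-OE, 245, 265 and 293 FPKM in VvSUC11-OE and 104, 102 and 100.4 FPKM in WT fruits. Its log2FC was 3.04, 0.65 and 1.34 in VvSUC27-OE, VvSUC12-OE and VvSUC11-OE. A further chalcone synthase (gene3630) averaged 12.1, 21.7 and 20.6 FPKM in the lines and 20.7 FPKM in the WT, with a log2FC of -0.78, 0.038 and -0.030. Chalcone synthase 2 (gene13964) had a log2FC of 2.69, 1.14 and 1.99 and the flavonol synthase/flavanone 3-hydroxylase gene26361 one of 2.05, 0.98 and 1.62, so both were higher in every line than in the WT, with the values of VvSUC12-OE nearest to it. Apart from gene3630, these enzymes were also higher in VvSUC11-OE fruits than in the WT. The 2 flavonoid MYBs tested there, gene28677 and the repressor MYB5-like gene69, had 0 calls by limma. Of these 1 was under an unadjusted p of 0.05, as were 66.4% of all genes. Gene25636 was too scarce to test there. A MYB12 gene outside the rule for members, gene1463, had a log2FC of 0.99 there and is described below. Whether any of these MYBs acts on the enzymes was not tested.

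The largest called changes of the enzyme list were of genes listed at 0 in the lines or in the WT. The flavonoid 3'-monooxygenase-like gene20902 was listed at 0 FPKM in all 9 OE libraries and at 7.80, 11.2 and 5.34 FPKM in WT fruits. A pair of genes with the same name (gene20904 and gene20908) were also at 0 in the lines, and near-identical copies can share reads, so these values are uncertain. The 4-coumarate--CoA ligase 2 gene17182 was at 0.980, 1.21 and 1.49 FPKM in VvSUC11-OE fruits and listed at 0 in the WT. The 2 WD40 genes of the TRANSPARENT TESTA GLABRA 1 kind had 0 calls by limma in any line and 0 with an unadjusted p under 0.05 (60%, 55.6% and 66.4% of all genes in VvSUC27-OE, VvSUC12-OE and VvSUC11-OE). The first of them (gene8314) averaged 23.1 ± 0.71, 23.5 ± 1.6 and 24.7 ± 0.19 FPKM in the lines and 24.8 ± 2.5 FPKM in the WT (SD, n = 3 each). A gene annotated MYB12 protein (gene1463), whose name falls outside the rule for members, was at 14.9, 19.5 and 13.3 FPKM in VvSUC27-OE, 15.9, 15.6 and 14.8 FPKM in VvSUC12-OE, 19.2, 19.8 and 21.5 FPKM in VvSUC11-OE and 9.55, 10.4 and 10.7 FPKM in WT fruits. It was thus more abundant than gene28677 in every library and higher in every line than in the WT, at a log2FC of 0.63, 0.57 and 0.99, which is under the size needed for a call.

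**Figure D3:**
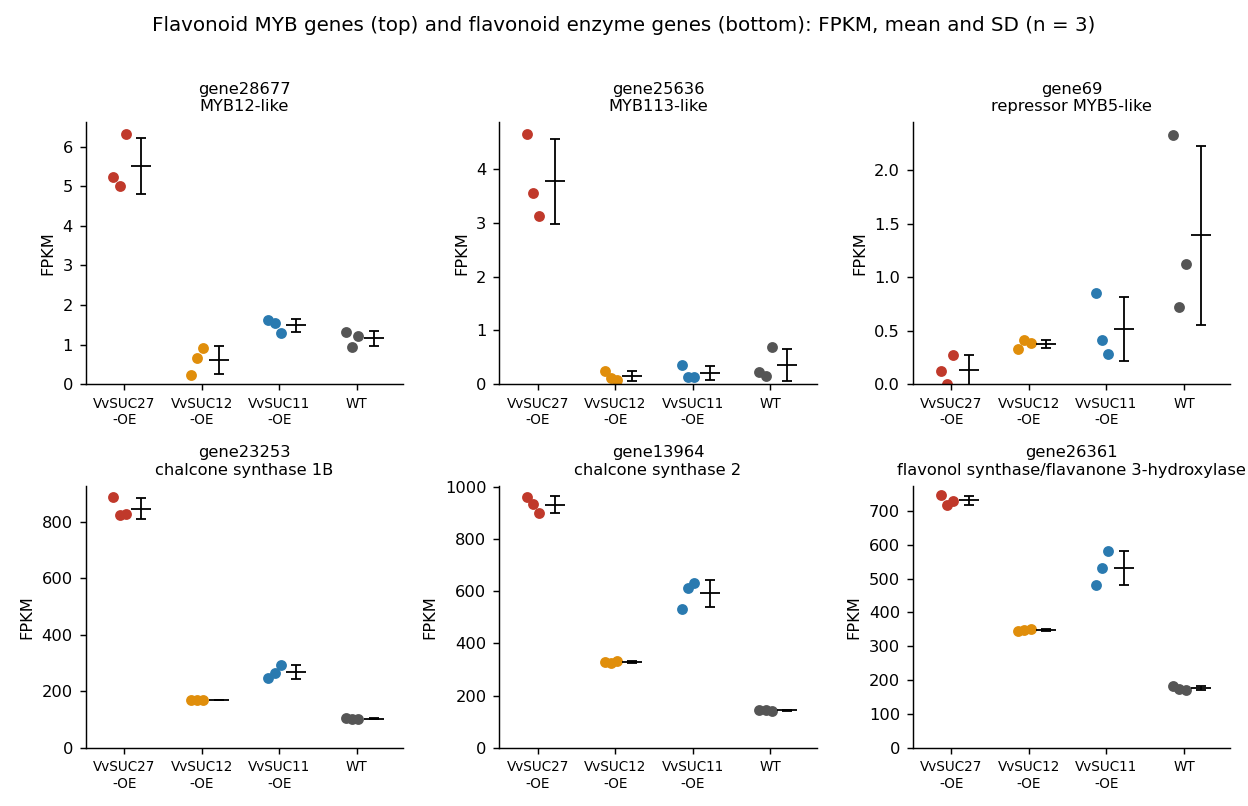
FPKM (y axis, from 0) of 3 flavonoid MYB genes (top) and 3 flavonoid enzyme genes (bottom) in VvSUC27-OE, VvSUC12-OE, VvSUC11-OE and WT libraries; points are libraries, and the bar beside them is the mean with its SD (n = 3). The MYB12-like and MYB113-like genes stand out in VvSUC27-OE fruits, whereas the enzyme genes are above the WT in all 3 lines, chalcone synthase 1B at 823 to 888 FPKM in VvSUC27-OE fruits.

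The stress MYBs held the most abundant members of the family. They are 3 genes named after MYB44, an Arabidopsis factor of abscisic acid and stress responses, and 8 named after MYB1R1, a single-repeat MYB linked to drought tolerance in potato. Of the 11 members 9 were tested in each line, where 1 rose and 2 fell in VvSUC27-OE, 1 fell in VvSUC11-OE, and 0 were called by limma in VvSUC12-OE, where 8 had an unadjusted p under 0.05 (55.6% of all genes did). Over all genes 11%, 14.7% and 8.6% were called in VvSUC27-OE, VvSUC11-OE and VvSUC12-OE.

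The MYB44-like gene6515, the most abundant MYB gene of WT fruits, was at 59.7, 58.3 and 61.3 FPKM in VvSUC27-OE, 110, 111 and 112 FPKM in VvSUC12-OE, 108, 102 and 118 FPKM in VvSUC11-OE and 167, 167 and 172 FPKM in WT fruits. All OE libraries were below the WT, those of VvSUC27-OE by most, and VvSUC12-OE values lay inside the VvSUC11-OE range. The log2FC was -1.5 (SE 0.03, adjusted p = 5.0e-17) in VvSUC27-OE, a fall, and -0.67 in VvSUC12-OE and in VvSUC11-OE, under the size for a call though the adjusted p was 8.4e-13 and 2.6e-09. A second MYB44-like gene, gene11808, was at 4.23, 3.91 and 3.64 FPKM in VvSUC27-OE, 8.12, 10.4 and 9.72 FPKM in VvSUC12-OE, 5.05, 5.94 and 5.52 FPKM in VvSUC11-OE and 16.0, 13.4 and 15.0 FPKM in WT fruits. The 4 groups did not overlap, and the log2FC was -1.90 (SE 0.12, adjusted p = 3.7e-10), -0.72 (SE 0.11, adjusted p = 1.6e-05) and -1.47 (SE 0.11, adjusted p = 3.1e-08). The remaining MYB44-like gene, gene11718, was at 63.4, 64.6 and 67.1 FPKM in VvSUC27-OE, 53.8, 54.7 and 56.1 FPKM in VvSUC12-OE, 63.1, 56.5 and 63.8 FPKM in VvSUC11-OE and 63.4, 59.0 and 63.8 FPKM in WT fruits, and its log2FC of 0.05, -0.25 and -0.10 was small in every line.

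Of the MYB1R1 genes, 1 was called against the WT. The MYB1R1-like gene8742 was at 103, 102 and 103 FPKM in VvSUC27-OE, 109, 103 and 108 FPKM in VvSUC12-OE, 222, 228 and 236 FPKM in VvSUC11-OE and 150, 147 and 150 FPKM in WT fruits. VvSUC11-OE was above the WT and both other lines below it, so they differed more from VvSUC11-OE than from the WT. The log2FC was -0.55, -0.55 and 0.57 against the WT, none of them called. It was -1.13 (SE 0.03, adjusted p = 1.6e-14) for VvSUC27-OE and -1.12 (SE 0.03, adjusted p = 4.7e-15) for VvSUC12-OE against VvSUC11-OE. The MYB1R1 gene16029 averaged 115, 118 and 154 FPKM in VvSUC27-OE, VvSUC12-OE and VvSUC11-OE and 102 FPKM in WT fruits, with a log2FC of 0.15, 0.14 and 0.56. A further MYB1R1 gene, gene9656, averaged 57.1, 55.6 and 84.0 FPKM in the lines and 47.6 FPKM in WT fruits, with a log2FC of 0.25, 0.13 and 0.76, and was not called. The scarcer MYB1R1 gene28742 was at 3.44, 3.78 and 2.96 FPKM in VvSUC27-OE, 2.54, 1.65 and 1.85 FPKM in VvSUC12-OE, 2.74, 3.29 and 3.44 FPKM in VvSUC11-OE and 1.35, 1.91 and 1.72 FPKM in WT fruits, where VvSUC12-OE overlapped the WT. Its log2FC of 1.02 (SE 0.19, adjusted p = 1.9e-04) in VvSUC27-OE was a rise by the rule, but lost the call without VvSUC27-OE replicate 1 (0.99), VvSUC27-OE replicate 2 (0.95) or WT replicate 1 (0.88).

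Among the cuticle and epidermis MYBs, genes of 1 name moved in opposite directions. They are named after a snapdragon MYB whose Arabidopsis relatives, such as MYB30, MYB94 and MYB96, are known for wax synthesis and defence. The epidermis-type gene6066 was at 10.2, 9.72 and 9.44 FPKM in VvSUC27-OE, 10.01, 10.3 and 9.02 FPKM in VvSUC12-OE, 16.6, 14.9 and 16.5 FPKM in VvSUC11-OE and 23.2, 24.0 and 21.3 FPKM in WT fruits. All lines were below the WT without overlap. The log2FC was -1.22 (SE 0.08, adjusted p = 2.3e-10), -1.24 (SE 0.07, adjusted p = 1.5e-10) and -0.55 (SE 0.07, adjusted p = 7.9e-06). The other epidermis-type gene that moved, gene15989, was at 10.4, 9.63 and 8.42 FPKM in VvSUC27-OE, 5.55, 5.36 and 5.998 FPKM in VvSUC12-OE, 13.2, 14.3 and 17.3 FPKM in VvSUC11-OE and 4.84, 5.35 and 4.70 FPKM in WT fruits, and all lines lay above the WT. It rose in VvSUC11-OE fruits (log2FC 1.53, SE 0.10, adjusted p = 5.8e-09), and its log2FC was 0.92 (SE 0.10) in VvSUC27-OE and 0.15 (SE 0.11) in VvSUC12-OE. The other tested genes with this name were not called. Gene6084 averaged 28.4, 23.9 and 29.5 FPKM in the lines and 27.7 FPKM in the WT. Gene8975 averaged 2.54, 2.87 and 4.60 FPKM in the lines and 3.52 FPKM in the WT.

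**Figure D4:**
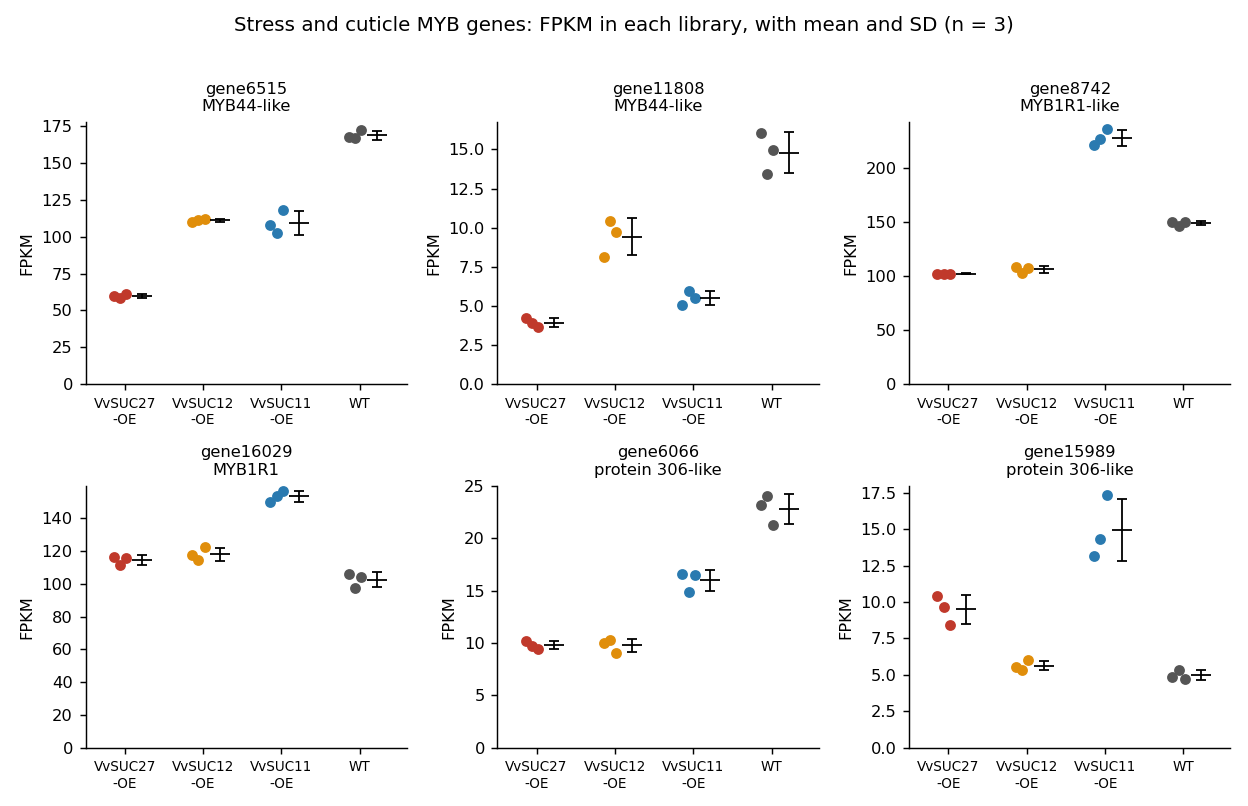
FPKM (y axis, from 0) of 4 stress MYB genes and 2 cuticle MYB genes in VvSUC27-OE, VvSUC12-OE, VvSUC11-OE and WT libraries; points are libraries, and the bar beside them is the mean with its SD (n = 3). The MYB44-like gene6515 is at 58.3 to 61.3 FPKM in VvSUC27-OE and 167 to 172 FPKM in WT fruits, and the cuticle genes gene6066 and gene15989 differ from the WT in opposite directions.

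Among the secondary wall MYBs, genes named MYB86-like were highest in VvSUC11-OE fruits. The group holds names such as MYB46, a switch of secondary wall formation in Arabidopsis, and MYB86, a relative of MYB61. Of its 8 members only 3, 2 and 4 could be tested in VvSUC27-OE, VvSUC12-OE and VvSUC11-OE, and MYB46 and its relatives stayed under 1 FPKM on average in every group. The MYB86-like gene16078 was at 0.869, 1.06 and 0.892 FPKM in VvSUC27-OE, 1.68, 1.70 and 1.55 FPKM in VvSUC12-OE, 4.79, 4.92 and 4.71 FPKM in VvSUC11-OE and 0.414, 0.348 and 0.526 FPKM in WT fruits. The 4 groups did not overlap, and the log2FC was 1.12 (SE 0.32, adjusted p = 0.0060), 1.98 (SE 0.29, adjusted p = 1.4e-05) and 3.46 (SE 0.24, adjusted p = 6.8e-09). The call in VvSUC27-OE was lost without any 1 of its 6 libraries, at a log2FC of 0.96 without WT replicate 2 to 1.28 without WT replicate 3.

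The other MYB86-like genes differed from it. Gene24243 was at 3.54, 2.86 and 3.16 FPKM in VvSUC27-OE, 4.82, 4.92 and 5.51 FPKM in VvSUC12-OE, 13.9, 12.2 and 12.9 FPKM in VvSUC11-OE and 6.77, 8.71 and 8.83 FPKM in WT fruits. VvSUC27-OE and VvSUC12-OE libraries lay below the WT and VvSUC11-OE libraries above it. It fell in VvSUC27-OE fruits (log2FC -1.35, SE 0.15, adjusted p = 6.9e-07), and its log2FC of -0.70 in VvSUC12-OE and 0.61 in VvSUC11-OE was not called. Gene5514 was at 0.484, 0.382 and 0.599 FPKM in VvSUC27-OE, 0.314, 0.369 and 0.159 FPKM in VvSUC12-OE, 1.78, 1.85 and 0.766 FPKM in VvSUC11-OE and 0.325, 0.177 and 0.474 FPKM in WT fruits. VvSUC11-OE libraries were above all others, with a log2FC against the WT of 2.06 (SE 0.44) in VvSUC11-OE. The gene had passed the filter there through that line alone, so the value is a description. Of 56 genes of cellulose and lignin synthesis, 0 rose by limma and 3 fell of 41 tested in VvSUC27-OE (14 were higher and 9 lower with an unadjusted p under 0.05, as were 60% of all genes in either direction). Of these genes 1 rose and 3 fell of 41 in VvSUC12-OE, and 8 rose and 5 fell of 44 in VvSUC11-OE, a share called of 7.32%, 9.76% and 29.5% beside 11%, 8.6% and 14.7% of all genes. The largest differences were those of a laccase-4-like gene (gene16571), at 0.714, 0.419 and 0.511 FPKM in VvSUC11-OE and 0, 0.0358 and 0 FPKM in WT fruits, and of a laccase-14-like gene (gene11136), listed at 0 in VvSUC11-OE and at 2.05, 1.38 and 1.31 FPKM in WT fruits.

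The cell cycle MYBs were 4 genes, all tested. A 3R-1-like gene of the MYB3R family, which in Arabidopsis and tobacco binds the promoters of mitotic genes, fell in VvSUC27-OE and VvSUC11-OE fruits. This gene, gene27499, was at 1.21, 1.52 and 1.39 FPKM in VvSUC27-OE, 4.71, 3.98 and 3.28 FPKM in VvSUC12-OE, 0.823, 1.70 and 1.04 FPKM in VvSUC11-OE and 3.21, 2.25 and 2.13 FPKM in WT fruits. VvSUC27-OE and VvSUC11-OE libraries were below the WT and VvSUC12-OE libraries above it. The log2FC was -1.03 (SE 0.14, adjusted p = 5.8e-06), 0.55 (SE 0.11, adjusted p = 6.5e-04) and -1.38 (SE 0.15, adjusted p = 1.6e-06). The call in VvSUC27-OE was lost without VvSUC27-OE replicate 1 (log2FC -0.995) or WT replicate 1 (-0.92), and at -0.82 on the FPKM in place of the scaled counts.

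Its sister gene20331, of the same name, averaged 6.49, 8.51 and 4.73 FPKM in VvSUC27-OE, VvSUC12-OE and VvSUC11-OE and 6.43 FPKM in the WT, and was not called. Myb-related protein A (gene12373), which bears the name of a vertebrate MYB, was at 4.002, 3.74 and 4.21 FPKM in VvSUC27-OE, 6.03, 6.59 and 5.72 FPKM in VvSUC12-OE, 8.46, 9.18 and 7.86 FPKM in VvSUC11-OE and 3.10, 3.54 and 2.98 FPKM in WT fruits. None of the groups overlapped. It rose in VvSUC11-OE (log2FC 1.36, SE 0.10, adjusted p = 1.3e-08), with a log2FC of 0.91 in VvSUC12-OE and 0.31 in VvSUC27-OE. Protein B (gene21755) was level, at 6.44, 6.92 and 6.42 FPKM in the lines and 6.14 FPKM in the WT on average.

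Mitotic cyclins and B-type cyclin-dependent kinases, a list of 15 genes with 14 tested, had 7 that fell in VvSUC11-OE fruits, with a median log2FC of -0.96, and 0 called by limma in VvSUC27-OE and VvSUC12-OE, where the median was -0.25 and 0.42. Over all genes 7.33% fell in VvSUC11-OE. An unadjusted p under 0.05 was reached by 10 of the 14 in VvSUC27-OE and 11 in VvSUC12-OE, beside 60% and 55.6% of all genes. Cyclin S13-7 (gene24952, named after its values were seen) was at 4.85, 4.66 and 4.96 FPKM in VvSUC27-OE, 15.2, 15.7 and 15.0 FPKM in VvSUC12-OE, 2.60, 2.44 and 2.86 FPKM in VvSUC11-OE and 8.11, 7.91 and 7.30 FPKM in WT fruits. Its order of groups, VvSUC12-OE above the WT and VvSUC27-OE and VvSUC11-OE below it, was that of gene27499. This is a match in a gene chosen from the list, and any link between them was not tested. The largest difference in the list was that of cyclin-B2-4-like newGene_1080, listed at 0 FPKM in VvSUC11-OE and at 1.65, 1.60 and 1.74 FPKM in WT fruits. Its order was another, with VvSUC27-OE above the WT at 2.69, 2.74 and 2.09 FPKM. VvSUC12-OE lay below the WT at 1.17, 0.615 and 1.22 FPKM.

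**Figure D5:**
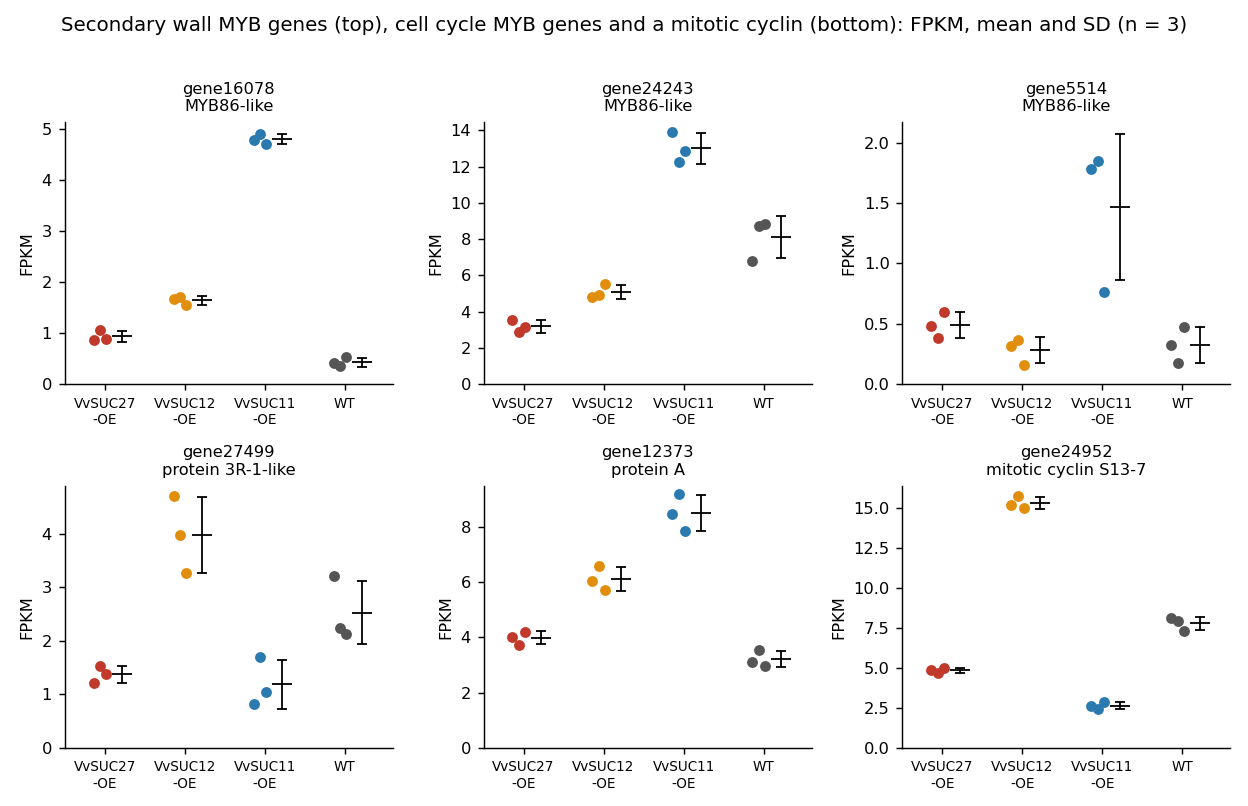
FPKM (y axis, from 0) of 3 MYB86-like genes (top) and of 2 cell cycle MYB genes and a mitotic cyclin (bottom) in VvSUC27-OE, VvSUC12-OE, VvSUC11-OE and WT libraries; points are libraries, and the bar beside them is the mean with its SD (n = 3). Gene16078 is at 4.71 to 4.92 FPKM in VvSUC11-OE and under 1 FPKM in WT fruits, and the 3R-1-like gene27499 and the cyclin are both highest in VvSUC12-OE fruits.

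The floral and anther MYBs were mostly scarce, with 5 of 13 tested. The most abundant of them, GAMyb-like1 (gene368), averaged 9.12, 9.48 and 12.8 FPKM in VvSUC27-OE, VvSUC12-OE and VvSUC11-OE. It averaged 8.83 FPKM in the WT and was not called. MYB108 (gene12558), known in Arabidopsis for stamen maturation and stress responses, was at 3.66, 2.23 and 2.86 FPKM in VvSUC27-OE, 1.98, 4.06 and 2.42 FPKM in VvSUC12-OE, 1.91, 1.46 and 1.32 FPKM in VvSUC11-OE and 1.55, 0.924 and 0.883 FPKM in WT fruits. VvSUC27-OE and VvSUC12-OE libraries were above the WT and VvSUC11-OE libraries overlapped it. The log2FC of this gene was 1.36 (SE 0.29, adjusted p = 6.2e-04), 1.21 (SE 0.31, adjusted p = 0.0035) and 0.42 (SE 0.32). The VvSUC12-OE call was lost without VvSUC12-OE replicate 2 (log2FC 0.92), WT replicate 2 (1.11) or WT replicate 3 (1.06). The MYB108-like gene1046 fell in VvSUC12-OE fruits (log2FC -1.07, SE 0.29, adjusted p = 0.0051), where it averaged 0.645 ± 0.12 FPKM, against 1.34 ± 0.16 FPKM in the WT (SD, n = 3 each). Its call was lost without VvSUC12-OE replicate 2 or 3 and without any 1 WT replicate, at adjusted p-values between 0.011 and 0.031. The GAMYB-like gene27568, named after the gibberellin-responsive MYB of cereal aleurone and anthers, averaged 0.533 ± 0.25 FPKM in VvSUC11-OE and 1.11 ± 0.18 FPKM in WT fruits (SD, n = 3 each). Its log2FC of -1.22 (SE 0.30, adjusted p = 0.0026) lost its call without VvSUC11-OE replicate 3 (-0.90), WT replicate 1 (-1.14) or WT replicate 3 (-1.23).

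The gene that RefSeq names MYB21 (gene4560, named here after its values were seen) is known in tomato for flower and ovule development under jasmonate. It was at 1.497, 0.511 and 1.15 FPKM in VvSUC27-OE, 0.502, 0.0629 and 0.0634 FPKM in VvSUC12-OE, 0, 0.0627 and 0.0702 FPKM in VvSUC11-OE and 0, 0 and 0.0609 FPKM in WT fruits. It was too scarce to test, but VvSUC27-OE libraries were all above the rest. With 0 scaled counts in every WT library its mean in VvSUC27-OE was at least 5.33-fold higher than a floor of 3 counts per library, which covers counting error only. The other members of the group that were not tested had at most 8 scaled counts in any library. The 28 genes with pollen, anther, tapetum or stamen in their name summed to 2282 to 2307 FPKM in VvSUC27-OE, 2477 to 2549 FPKM in VvSUC12-OE, 2509 to 2535 FPKM in VvSUC11-OE and 2234 to 2301 FPKM in WT libraries, with 2, 1, 4 and 4 of them at 0 in every library of these groups. A single abundant gene, pollen-specific protein C13 (gene11014), made up most of this sum at 1631 to 1839 FPKM over all libraries.

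Among the members outside these groups, 4 rose and 1 fell of 21 tested in VvSUC27-OE, 2 rose and 1 fell of 20 in VvSUC12-OE, and 5 rose and 2 fell of 21 in VvSUC11-OE. The share called was 23.8%, 15.0% and 33.3%, beside 11%, 8.6% and 14.7% of all genes. MYB82 (gene17147), which takes part in trichome development in Arabidopsis, was at 1.99, 3.14 and 2.40 FPKM in VvSUC27-OE, 3.07, 2.78 and 2.64 FPKM in VvSUC12-OE, 4.83, 3.94 and 3.94 FPKM in VvSUC11-OE and 0.791, 1.46 and 1.28 FPKM in WT fruits. Every OE library was above the WT, with a log2FC of 1.06 (SE 0.28, adjusted p = 0.0037), 1.24 (SE 0.26, adjusted p = 6.7e-04) and 1.86 (SE 0.25, adjusted p = 1.3e-05). The VvSUC27-OE call was lost without VvSUC27-OE replicate 2 (0.88) or WT replicate 1 (0.81), and the VvSUC12-OE call without WT replicate 1 (0.98). The gene called ETC1 (newGene_2870), after a single-repeat MYB that holds back trichomes in Arabidopsis, was at 1.42, 0.604 and 2.46 FPKM in VvSUC27-OE, 0.476, 0.247 and 0.498 FPKM in VvSUC12-OE, 0.238, 0.249 and 0.281 FPKM in VvSUC11-OE and 1.87, 1.94 and 1.39 FPKM in WT fruits. VvSUC27-OE libraries spread across the WT range and the other lines were below it. The log2FC was -2.22 (SE 0.48) in VvSUC12-OE and -2.70 (SE 0.46) in VvSUC11-OE. In both the gene had passed the filter through the WT alone, so these values are a description.

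The MYB32-like gene14607, whose Arabidopsis namesake acts in pollen wall and lignin synthesis, was at 0.921, 0.709 and 0.995 FPKM in VvSUC27-OE, 0.804, 0.888 and 0.593 FPKM in VvSUC12-OE, 0.752, 0.517 and 1.23 FPKM in VvSUC11-OE and 0.210, 0.193 and 0.345 FPKM in WT fruits. All OE libraries were above all WT libraries. In each comparison the gene had passed the filter through the OE line alone, so its log2FC of 1.79 (SE 0.37), 1.55 (SE 0.40) and 1.62 (SE 0.41) is a description. The last pair lost their calls without WT replicate 1 or 2, at 1.44 in VvSUC12-OE and 1.51 in VvSUC11-OE. The gene annotated MYB39 (gene5259), which RefSeq calls MYB102 and whose Arabidopsis namesake MYB39 is known for suberin, was at 1.07, 1.55 and 0.839 FPKM in VvSUC27-OE, 0.286, 0.616 and 0.616 FPKM in VvSUC12-OE, 0.991, 1.17 and 1.34 FPKM in VvSUC11-OE and 0.353, 0.0937 and 0.122 FPKM in WT fruits. Its log2FC was 2.63 (SE 0.45) in VvSUC27-OE and 2.62 (SE 0.45) in VvSUC11-OE, where it was called but had passed the filter through the line alone. In VvSUC12-OE, where it overlapped the WT, it was too scarce to test.

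Myb-like protein O (gene15819), 1 of the members without a Myb domain, was at 140, 144 and 151 FPKM in VvSUC27-OE, 73.0, 69.4 and 75.4 FPKM in VvSUC12-OE, 121, 114 and 115 FPKM in VvSUC11-OE and 53.0, 58.3 and 61.1 FPKM in WT fruits. All lines were above the WT. The log2FC in VvSUC27-OE, VvSUC12-OE and VvSUC11-OE was 1.34 (SE 0.05, adjusted p = 1.0e-13), 0.32 (SE 0.05, adjusted p = 5.0e-05) and 1.02 (SE 0.05, adjusted p = 2.6e-10). The last of these stood at 0.99 without VvSUC11-OE replicate 1 and 0.96 without WT replicate 1. MYB48 (gene27668) rose in VvSUC11-OE fruits, at 19.8, 22.7 and 24.6 FPKM there and 8.14, 9.37 and 7.59 FPKM in the WT (log2FC 1.41, SE 0.09, adjusted p = 4.1e-09), whereas VvSUC27-OE and VvSUC12-OE averaged 7.98 and 7.89 FPKM. A pair of genes annotated only as myb-related transcription factors fell in 1 line each. Gene15199, called THM18 in RefSeq, had a log2FC of -1.27 (SE 0.18, adjusted p = 2.0e-05) in VvSUC11-OE, at 4.60, 2.97 and 5.01 FPKM there and 8.74, 9.97 and 10.1 FPKM in the WT. Gene26164 had one of -1.54 (SE 0.31, adjusted p = 3.8e-04) in VvSUC27-OE, at 1.06, 0.407 and 0.583 FPKM there and 1.89, 2.31 and 1.78 FPKM in WT fruits.

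An ABA-induced MYB that RefSeq names AIM1 (gene29682, named here after its values were seen), known in tomato for defence and salt responses under abscisic acid, was never tested. It was listed at 0 FPKM in all VvSUC27-OE and WT libraries, at 0.650, 0.238 and 0.142 FPKM in VvSUC12-OE and at 0.750, 1.05 and 0.474 FPKM in VvSUC11-OE fruits. Its mean scaled count in VvSUC11-OE was at least 4.22-fold higher than a floor of 3 counts per library for the WT, and in VvSUC12-OE at least 1.56-fold higher.

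The lines were then compared with each other, where no WT library enters. VvSUC27-OE against VvSUC12-OE gave 3 members up and 4 down of 54 tested, with 6.8% called over all genes (2.64% up and 4.16% down). VvSUC27-OE against VvSUC11-OE gave 6 up and 9 down of 56, with 10.7% called over all genes (3.67% up and 6.99% down). VvSUC12-OE against VvSUC11-OE gave 4 up and 12 down of 54, with 10.2% called over all genes (4.74% up and 5.51% down). The median log2FC of the tested members in the last comparison was -0.34, beside -0.0071 over all genes, and its count down was 7 without VvSUC11-OE replicate 3. Of the called members, 2, 3 and 2 in VvSUC27-OE against VvSUC12-OE, VvSUC27-OE against VvSUC11-OE and VvSUC12-OE against VvSUC11-OE had passed the filter through 1 group alone.

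The snapdragon-type gene28681 differed between all 3 lines. VvSUC12-OE was above VvSUC11-OE by a log2FC of 4.31 (SE 0.20, adjusted p = 1.6e-12) and VvSUC27-OE above VvSUC11-OE by 1.90 (SE 0.29, adjusted p = 2.4e-05). VvSUC27-OE stood at -2.40 (SE 0.14, adjusted p = 4.3e-11) against VvSUC12-OE, and no 2 lines overlapped. The 3R-1-like gene27499 was higher in VvSUC12-OE than in VvSUC11-OE by 1.93 (SE 0.14, adjusted p = 6.1e-10) and stood at -1.58 (SE 0.12, adjusted p = 2.3e-09) in VvSUC27-OE against VvSUC12-OE. VvSUC11-OE was the highest line for gene16078, gene2131, gene24243, gene27668, gene5514 and gene6752, each of them called down in both VvSUC27-OE and VvSUC12-OE against VvSUC11-OE. Their log2FC lay between -1.32 and -3.44 in VvSUC27-OE and between -1.13 and -2.32 in VvSUC12-OE. The extremes are those of gene6752 and gene5514, which had passed the filter there through VvSUC11-OE alone. The call of gene5514 in VvSUC27-OE was lost without VvSUC11-OE replicate 1 or 2 or VvSUC27-OE replicate 1 or 2, at adjusted p-values between 0.013 and 0.039, and with all 12 libraries in the fit (adjusted p = 0.011). With all 12 the call of gene6752 in VvSUC12-OE was lost too (adjusted p = 0.012).

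The 4 members called only between lines were gene8742, already described, the Myb4-like gene16786, the MYB1R1 gene27952 and the MYB48-like gene16470. Gene16786 was at 8.003, 9.29 and 11.1 FPKM in VvSUC27-OE, 6.98, 8.23 and 6.61 FPKM in VvSUC12-OE, 3.62, 2.37 and 3.49 FPKM in VvSUC11-OE and 4.94, 4.55 and 5.90 FPKM in WT fruits. VvSUC11-OE lay below the WT and the other lines above it. Its log2FC against VvSUC11-OE was 1.63 (SE 0.18, adjusted p = 6.2e-07) in VvSUC27-OE and 1.17 (SE 0.19, adjusted p = 2.3e-05) in VvSUC12-OE. Gene27952 had a log2FC of -1.04 (SE 0.12, adjusted p = 5.5e-07) in VvSUC12-OE against VvSUC11-OE, which was -0.98 without VvSUC11-OE replicate 3. Gene16470 had one of -1.80 (SE 0.42) and had passed the filter there through VvSUC11-OE alone.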

How the data were processed

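The FPKM were made by the authors with cuffnorm after mapping to tomato assembly SL2.50 with TopHat2 and are deposited per library. The deposited counts are a scaled signal: the authors had brought them to a common size and rounded them, since their totals lie close together and low values fall on regular steps. The unscaled reads of each gene are therefore unknown. The paper lists the reads of each library, and some WT libraries had the fewest. The counting tool is not given in the sources used here. The authors' fold changes and FDR (EBSeq) and the pairwise tables were not used. Samples were grouped by the labels' genotype, and 0 columns of other samples were present. The labels do not say that libraries came from separate plants, so p-values measure the spread between these libraries.

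Each pair of groups was compared with limma 3.58.1 in R 4.3.3 (data.table version 1.17.8), using lmFit and eBayes with a trend, on log2(scaled count + 1) in its 6 libraries, for genes reaching 10 scaled counts in 3 or more of these. Fold changes of scarce genes are understated on this scale. Benjamini-Hochberg adjustment ran over all genes tested. A call needed an FDR under 0.01 and an absolute log2FC above 1. The procedure was tested on simulated data. Members, groups and lists were chosen by words in the annotation with earlier results of these data known; 7 stray word matches were left out of the lists, and gene names were matched to RefSeq by KEGG gene identifier for 73 members. Named were all members called in a line against the WT, the 5 most abundant in the WT, those called only between lines and the extremes of each list. Alternatives were 2 rescalings, a pseudocount of 5, a lowest mean of 50 scaled counts, no filter, FPKM plus 0.1, all 12 libraries in the fit, a replicate block and leaving out each library.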

Additional observations from a re-analysis of the deposited data

How the results depend on the processing

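The single-gene values kept their direction throughout: of 1293 values of 99 gene results under an alternative, 0 reversed, 90 lost the call and the rest kept their side of the threshold. Counts of called members moved by more than 1.5 times in 25 of 168 alternatives, of which 13 left out 1 library, 11 changed the filter and with it the number of members tested, and 1 changed the pseudocount. With 50 scaled counts as the lowest mean, 4 members were up in VvSUC27-OE against the WT, 1 up and 2 down in VvSUC12-OE, 6 up and 5 down in VvSUC11-OE. The same filter gave 7 down in VvSUC12-OE against VvSUC11-OE and 2 up in VvSUC27-OE against VvSUC11-OE. With no filter, 11 were down in VvSUC12-OE and 17 up in VvSUC11-OE against the WT, 14 down in VvSUC27-OE against VvSUC11-OE and 7 up in VvSUC27-OE against VvSUC12-OE. With a pseudocount of 5, 6 were up in VvSUC27-OE against the WT. The cause was not tested. Leaving out 1 library gave 4 to 9 up and 7 to 9 down in VvSUC27-OE, 3 to 4 up and 2 to 6 down in VvSUC12-OE and 6 to 10 up and 5 to 9 down in VvSUC11-OE against the WT. Between lines it gave 3 to 4 up and 7 to 12 down in VvSUC12-OE against VvSUC11-OE, 4 to 8 up and 6 to 9 down in VvSUC27-OE against VvSUC11-OE, and 2 to 3 up and 3 to 4 down in VvSUC27-OE against VvSUC12-OE. Replicate numbers did not pair the libraries, the correlation of same-numbered deviations lying between -0.079 and 0.082. With the replicate block 10 members were up and 9 down in VvSUC27-OE, 5 and 5 in VvSUC12-OE and 11 and 9 in VvSUC11-OE against the WT. By this fit 1 call was lost, that of gene1046 in VvSUC12-OE (adjusted p = 0.010), 1 was gained, that of gene69 in VvSUC11-OE (adjusted p = 0.0069), and no other call of a tested member changed. The 43 untested members are not shown to be unchanged.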

Other observations

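Further genes of the MYB superfamily have names outside the rule, such as the single-repeat factors of the circadian clock. Of 42 of these genes, 7 rose and 2 fell of 31 tested in VvSUC27-OE, 4 rose and 1 fell of 31 in VvSUC12-OE, and 8 rose and 2 fell of 30 in VvSUC11-OE. The share called was 29.0%, 16.1% and 33.3%, beside 11%, 8.6% and 14.7% of all genes. Their median log2FC was 0.24, 0.15 and 0.21, beside 0.0019, -0.0051 and -0.030 over all genes tested. LHY (gene23480), a morning factor of the clock in Arabidopsis, was at 37.9, 37.2 and 43.2 FPKM in VvSUC27-OE, 5.71, 6.29 and 5.57 FPKM in VvSUC12-OE, 38.3, 42.3 and 42.3 FPKM in VvSUC11-OE and 4.47, 5.61 and 5.41 FPKM in WT fruits. VvSUC27-OE and VvSUC11-OE libraries were all far above the WT, at a log2FC of 2.94 and 2.97, and VvSUC12-OE libraries were not, at 0.15 (limma). REVEILLE 8-like (gene25439), of the same clock family and named after its values were seen, was at 30.8, 28.3 and 28.8 FPKM in VvSUC27-OE, 5.81, 5.70 and 7.36 FPKM in VvSUC12-OE, 30.5, 33.5 and 31.3 FPKM in VvSUC11-OE and 5.84, 8.77 and 6.77 FPKM in WT fruits. The sources used here do not give the hours at which fruits were picked. A difference in picking hour therefore cannot be told apart from the genotype.

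The strongest fall of this list was that of a DIVARICATA-like gene (gene9942), named after a snapdragon factor of flower asymmetry, at 7.07, 7.997 and 8.06 FPKM in VvSUC27-OE, 8.73, 9.54 and 9.75 FPKM in VvSUC12-OE, 5.02, 4.64 and 4.08 FPKM in VvSUC11-OE and 17.8, 15.0 and 16.4 FPKM in WT fruits. All lines lay below the WT, with a log2FC of -1.08, -0.83 and -1.85. An APL-like gene (gene15725, also named after its values were seen), of the family of a phloem factor in Arabidopsis, was higher in all lines, at 2.27, 3.22 and 2.36 FPKM in VvSUC27-OE, 5.24, 4.31 and 3.84 FPKM in VvSUC12-OE, 8.51, 8.90 and 8.46 FPKM in VvSUC11-OE and 1.11, 1.18 and 1.03 FPKM in WT fruits, a log2FC of 1.24, 1.86 and 2.87. Other genes named after APL varied. In the same order the log2FC was 0.83, 0.32 and -1.74 for gene23288 and -0.64, 0.40 and -0.39 for gene20581. It was 0.68, 0.81 and 1.225 for gene28386, and gene26587 and gene29609 were slightly higher in every line.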
